A study of Mus musculus with 12 samples.

Results

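562 cells are a spontaneously immortalized mouse line grown out of the vascular tumors of mice in which endothelial Tsc1, a brake on the growth kinase complex mTORC1, was deleted with the tamoxifen-activated Scl-Cre. The Atg7 KO cells examined here were made from these cells with a lentiviral CRISPR vector and a single sgRNA against Atg7, while the control cells received an sgRNA against EGFP, and both were selected with puromycin. Both groups therefore lack functional Tsc1, although the labels call the genotype of the controls wildtype. The labels further give the strain as C57BL/6 and the tissue as lymphatic endothelial cells, and the sources used here do not say whether the KO cells were a clone or a pool. Total RNA was sequenced with a directional kit, and 3 Atg7 KO libraries are compared with 3 control libraries, that is 6 of the 12 samples of the study. All 14851 genes of the deposited table were read, and 11784 of them passed the filter on low values and were tested.

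ATG7 is the E1-like enzyme of autophagy, the process by which cytoplasm is enclosed in a double membrane and delivered to lysosomes. It activates the ubiquitin-like proteins ATG12 and ATG8 (LC3 and GABARAP), so that ATG12 can be joined to ATG5 and ATG8 to a membrane lipid. Cells that lack ATG7 cannot carry out either step and accumulate autophagy receptors and their cargo. The study asked what a block of autophagy does to vascular tumor cells in which mTORC1 is overactive.

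Levels are given as RPKM, reads per kilobase of gene scaled to the library total. The test was limma on log2 of RPKM plus 0.5, and a gene was called, and is said to have risen or fallen, where the Benjamini-Hochberg adjusted p was at most 0.1 and the log2 fold change at least 1 in size. All log2 fold changes are Atg7 KO over control on that scale, which understates the change of genes with low levels. The study describes independent mRNA preparations and biological triplicates, while the labels name no separate cultures. The p-values measure the spread between these libraries, which may be technical.

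The libraries held between 17269403 and 23635368 counted reads. Endothelial markers were present in all 6, with an RPKM of Pecam1 of 428, 265 and 350.2 across the controls and 287, 460.3 and 312 across the Atg7 KO libraries. The lymphatic receptor Flt4 had 65.2, 31.7 and 60.96 across the controls and 55.4, 59.1 and 66.4 across the Atg7 KO libraries, whereas Prox1, the defining factor of lymphatic identity, was low, with 1.35, 0.153 and 0.795 across the controls and 0.04199, 0.411 and 5.79 across the Atg7 KO libraries. The leukocyte markers Ptprc and Csf1r and the smooth muscle marker Myh11 stayed under an RPKM of 0.1 in all 6. Other markers of these cells, Cd68, Tagln and Acta2, were higher and are described below. The summed RPKM of the smooth muscle and pericyte markers was 3.16, 1.55 and 4.75 across the controls. It was 64.4, 3.79 and 36.9 across the Atg7 KO libraries. Atg7 KO replicate 2 stood apart from the other KO libraries. Its log2 levels correlated with theirs at a Pearson r of 0.961 and 0.960 across genes, against 0.986 between replicates 1 and 3, and 797 tested genes lay there at least 1 log2 unit beyond both other replicates, against 145 and 212 genes for replicates 1 and 3. Control replicates 1 and 2 also stood apart from their group, at 341 and 361 genes against 86 for control replicate 3. The library names carry a prefix whose meaning is not given. All 3 Atg7 KO libraries have the prefix Yang and no control library does, so that prefix and knockout cannot be told apart within these 6 libraries, and the only other library with it is Atg5 KO replicate 3.

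The libraries also differed by chromosome. The median gene of chromosome 8 lay at −0.63 and −0.47 log2 units from the control mean, after each library's overall median was taken off, in Atg7 KO replicates 1 and 3 and at −0.03 in replicate 2. Replicate 2 was instead lowest on chromosome 3, at −0.49, and highest on chromosome 10, at 0.39. No chromosome median left the range from −0.12 to 0.16 in a control library, which stands closer to the control mean by construction. Chromosome 8 held 5.52% of the tested genes and 13.1% of those that fell, 105 of its 650 tested genes, while 13 rose. Chromosome 8 was also low in the other KO cells, at −0.36, −0.35 and −0.601 for Atg5 KO replicates 1 to 3 and at −0.54, −0.41 and −0.12 for those of Fip200 KO cells. Chromosome X lay at −0.48, −0.01 and −0.35 in the 3 Atg7 KO libraries, with 35 of 378 tested genes lower and 10 higher. Chromosome 13 lay at −0.44, −0.18 and −0.19, with 45 of 450 lower and 6 higher. Chromosome 14 lay at −0.30, −0.20 and −0.37, with 38 of 392 lower and 2 higher. Chromosome 9 went the other way, at 0.33, 0.25 and 0.24, with 18 of 654 lower and 44 higher. The shares called on X, 13, 14 and 9 were 11.9%, 11.3%, 10.2% and 9.48%, near the genome-wide 10.1%. Genome-wide, 6.81% fell and 3.29% rose. Among the genes described below, Stxbp2, Lamp1, Map1lc3b, Hmox1, Osgin1, Msmo1, Plat, Vegfc, Foxc2, Il15, Cx3cl1, Jak3, Nlrc5, Jund, Dusp4, Gpt2, Gdf15, Herpud1, Ndufa13, Cpe, Cdh5, Itgb1, Klf2, Mvd, Nqo1 and Pik3r2 lie on chromosome 8. The part of the chromosome-wide difference in their values was not tested.

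**Figure D1:**
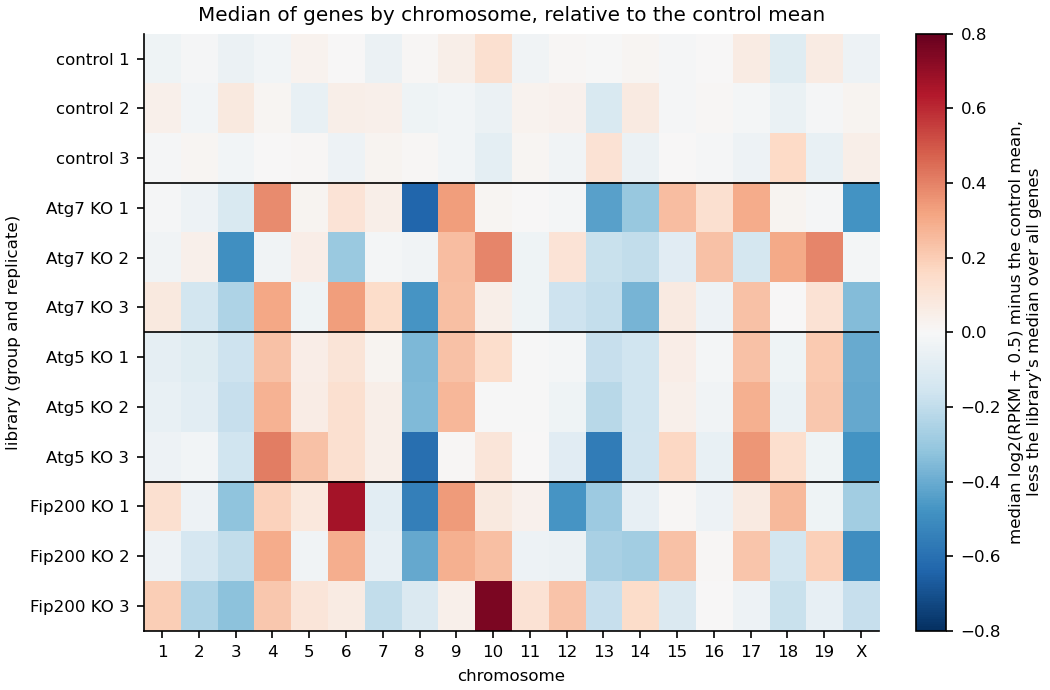
Median log2(RPKM + 0.5) minus the control mean, less the library's overall median, as colour, per chromosome (horizontal axis) in each of the 12 libraries (vertical axis), over genes with a mean RPKM of at least 2. Chromosome 8 lies at −0.63 and −0.47 in Atg7 KO replicates 1 and 3 and at −0.03 in replicate 2, and the control libraries stay between −0.12 and 0.16.

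Atg7 RNA was lower in every KO library. Its RPKM was 18.4, 24.99 and 19.8 across the controls and 5.399, 2.64 and 8.34 across the Atg7 KO libraries, and the groups did not overlap (log2 fold change −1.97, standard error 0.366, adjusted p = 0.0216). Between −2.31 and −1.57 remained when any 1 library was left out. The RNA was reduced but not lost, and its level does not report on the protein, since a small insertion or deletion can leave RNA in place. Of the 10 nearest tested genes, 5 on each side of Atg7 on chromosome 6, 3 were called, where 10.1% of all tested genes were. Pparg, a nuclear receptor of lipid metabolism, fell (−1.38, adjusted p = 0.00903) with an RPKM of 8.89, 9.1001 and 8.56 across the controls and 2.66, 3.34 and 3.29 across the Atg7 KO libraries. Tatdn2 (1.005, adjusted p = 0.0239) and Syn2 (1.06, adjusted p = 0.06996) rose, both close to the fold change threshold. Tatdn2 stood at 0.98, 0.94 and 0.88 without control replicate 1, Atg7 KO replicate 1 and Atg7 KO replicate 3, and Syn2 lost its call without control replicate 2 or 3 or Atg7 KO replicate 1 or 3, at adjusted p up to 0.206. The other 7, among them Vhl, Irak2, Ghrl, Sec13, Vgll4 and Tamm41, were not called.

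In all, 1191 of the 11784 tested genes were called (10.1%), 803 lower (6.81%) and 388 higher (3.29%), and the median gene stood at −0.008 log2 units. Genes whose 3 KO libraries lay wholly below the 3 controls numbered 2408 and those wholly above 2264, 20.4% and 19.2% of the genes tested and 39.6% together. Genes that fell had a median level of 6.18 RPKM over the 6 libraries and those that rose of 10.9, against 10.7 for all tested genes, a level that the lowered KO values enter. Of the 803 that fell, 306 had a mean RPKM of at least 10. Of the 2946 genes with the lowest levels 13.8% were called, 308 lower and 100 higher, and of the 2946 with the highest levels 8.32%, 143 lower and 102 higher. The count depended on single libraries and was 748 (6.35%) without control replicate 3 and 792 (6.72%) without Atg7 KO replicate 1. A fit of all 12 libraries with a term for the prefix, in which the Yang level rests on Atg5 KO replicate 3 alone, called 36 genes (0.305%), with 29 lower (0.246%) and 7 higher (0.0594%).

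**Figure D2:**
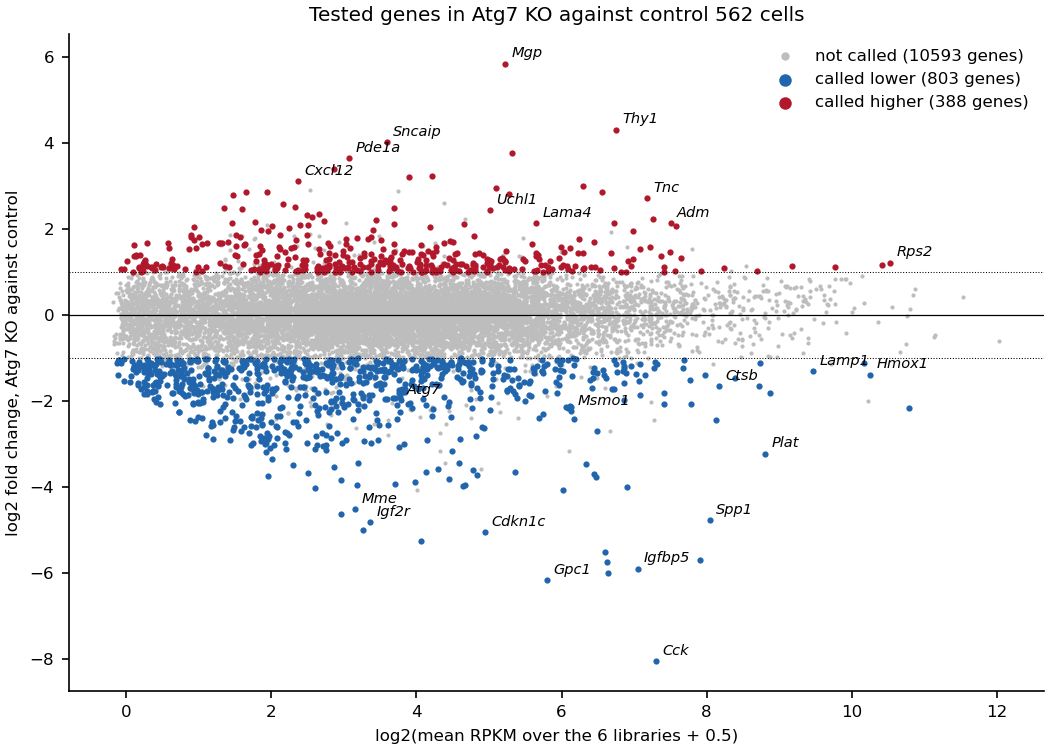
Log2 fold change of Atg7 KO over control (vertical axis) against mean level (horizontal axis) for the 11784 tested genes, with the 803 called lower and the 388 called higher in colour and named genes marked. Called genes lie on both sides of 0, with Cck the lowest and Mgp the highest.

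The genes with the lowest and highest fold changes were taken from the called genes that showed no overlap and had a mean RPKM of 1 or more, so that the separation of their groups is part of the choice. The lowest was Cck (−8.04, adjusted p = 0.00691), a gut and brain peptide hormone. Igfbp5, a secreted binding protein for insulin-like growth factors, had an RPKM of 261, 274 and 236 across the controls and 0.158, 9.04 and 12.3 across the Atg7 KO libraries (log2 fold change −5.89, standard error 1.02, adjusted p = 0.0187). Igfbp5 was thus nearly level across the controls and lowest by far in Atg7 KO replicate 1. Grem1, a secreted antagonist of BMPs, had 28.6, 411 and 143 across the controls and 0.848, 0.435 and 8.49 across the Atg7 KO libraries (log2 fold change −5.74, standard error 1.13, adjusted p = 0.0239). Ptgs1, the constitutive cyclooxygenase, had 57.04, 326 and 186 across the controls and 4.85, 0.631 and 5.76 across the Atg7 KO libraries (log2 fold change −5.498, standard error 0.813, adjusted p = 0.0127). In both genes control replicate 1 was the lowest control and replicate 2 the highest. Cdkn1c, an inhibitor of cyclin-dependent kinases, fell (log2 fold change −5.04, standard error 0.553, adjusted p = 0.00771) from 92.3, 37.5 and 47.7 in control to 0.287, 2.85 and 1.301 in Atg7 KO libraries. Twist2, a mesenchymal transcription factor, fell (−5.24, adjusted p = 0.0109), and so did Igf2r, the receptor that clears insulin-like growth factor 2 and sorts lysosomal enzymes (−4.81, adjusted p = 0.00329), from 10.7, 28.3 and 19.2 in control to 0.1297, 0.08596 and 0.285 in Atg7 KO libraries. Spp1, the gene of osteopontin, fell (−4.77, adjusted p = 0.0296), and its controls ranged from 59.4 in replicate 1 to 1369.7 in replicate 2.

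Some of the lowest genes varied widely among the controls. Gpc1, a glypican that carries heparan sulfate, had 1 read in the 3 KO libraries against 26861 in the controls, a ratio of 24086 with a 95% counting interval from 4323 to 951383, but control replicate 1 stood at 2.32 RPKM and replicate 2 at 266. Its adjusted p was 0.126 without control replicate 3 and 0.109 without Atg7 KO replicate 1. Slpi, a leukocyte protease inhibitor, stood at 3.61, 310.2 and 278 across the controls and 1.52, 0 and 0.895 across the Atg7 KO libraries (−5.98, adjusted p = 0.05095). The call of Slpi was lost without control replicate 2 or 3 or Atg7 KO replicate 1 or 3, at adjusted p between 0.105 and 0.157. Gm5886, a numbered gene model whose reads may be shared with a related gene, stood at 26.98, 1188 and 204 across the controls and 1.16, 1.02 and 19.01 across the Atg7 KO libraries (−5.68, adjusted p = 0.0475), and its call was lost without control replicate 2 or 3 or Atg7 KO replicate 1, at adjusted p between 0.116 and 0.145.

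At the other end, Mgp, a matrix inhibitor of calcification, rose most (5.85, adjusted p = 0.01005). Its RPKM was 69.7, 73.4 and 73.1 in the KO cells, Atg5 KO replicate 3 held 82.7, and with the prefix term its value was −1.96. Pde1a, a phosphodiesterase for cyclic nucleotides, had an RPKM of 0.913, 0.421 and 0.433 across the controls and 9.91, 28.3 and 7.45 across the Atg7 KO libraries (log2 fold change 3.65, standard error 0.476, adjusted p = 0.00997), and Atg5 KO replicate 3 stood at 11.7. Cxcl12, the chemokine ligand of CXCR4, rose (log2 fold change 3.11, standard error 0.419, adjusted p = 0.0109) from 0.673, 1.07 and 0.0807 in control to 12.7, 7.07 and 6.45 in Atg7 KO libraries. Tfec, a relative of the lysosomal regulator TFEB, rose from 0.296, 0.0951 and 0.0853 to 9.47, 1.85 and 4.13 (2.87, adjusted p = 0.0186). Its controls all lay under the filter level of 0.5 RPKM, so Tfec was tested through its KO libraries alone and had to differ. Trp53i11 had 13.01, 2.56 and 8.12 across the controls and 47.7, 94.6 and 36.8 across the Atg7 KO libraries (2.97, adjusted p = 0.0232). Thy1, a surface protein of fibroblasts and other cells, had 17.7, 11.2 and 2.36 across the controls and 346, 71.2 and 196 across the Atg7 KO libraries (4.32, adjusted p = 0.0207).

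Of the 12 highest genes, 6 owed their call to particular libraries. Sncaip (4.02, adjusted p = 0.0282) was at an adjusted p of 0.101 without control replicate 3. The serine protease gene Prss23 (3.78, adjusted p = 0.0361) reached 174 RPKM in Atg7 KO replicate 2 against 28.3 and 22.03 in the others, and was at 0.1099 and 0.127 without control replicates 2 and 3. Meox1, a mesodermal homeobox gene (3.39, adjusted p = 0.0315), was at 0.104 without control replicate 3 and at 0.101 without Atg7 KO replicate 1. Control replicate 1 held most of the Meox1 reads among the controls, and the same was true of Sncaip, Prss23 and the imprinted gene Ndn. Ndn (3.24, adjusted p = 0.0545) lost the call without control replicate 2 or 3 or Atg7 KO replicate 1 or 3, with 0.166 the highest adjusted p. Tagln, a smooth muscle and fibroblast actin-binding protein (3.21, adjusted p = 0.0747), had 2.23, 0.454 and 1.595 across the controls and 51.1, 2.42 and 28.4 across the Atg7 KO libraries. Its KO replicate 2 stood hardly above control replicate 1, and the call was lost without any 1 of the 3 controls or without Atg7 KO replicate 1 or 3, at adjusted p up to 0.197. Oasl1, an interferon-induced gene (3.01, adjusted p = 0.04596), lost it without control replicate 3 or Atg7 KO replicate 1 or 3, at adjusted p up to 0.145.

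**Figure D3:**
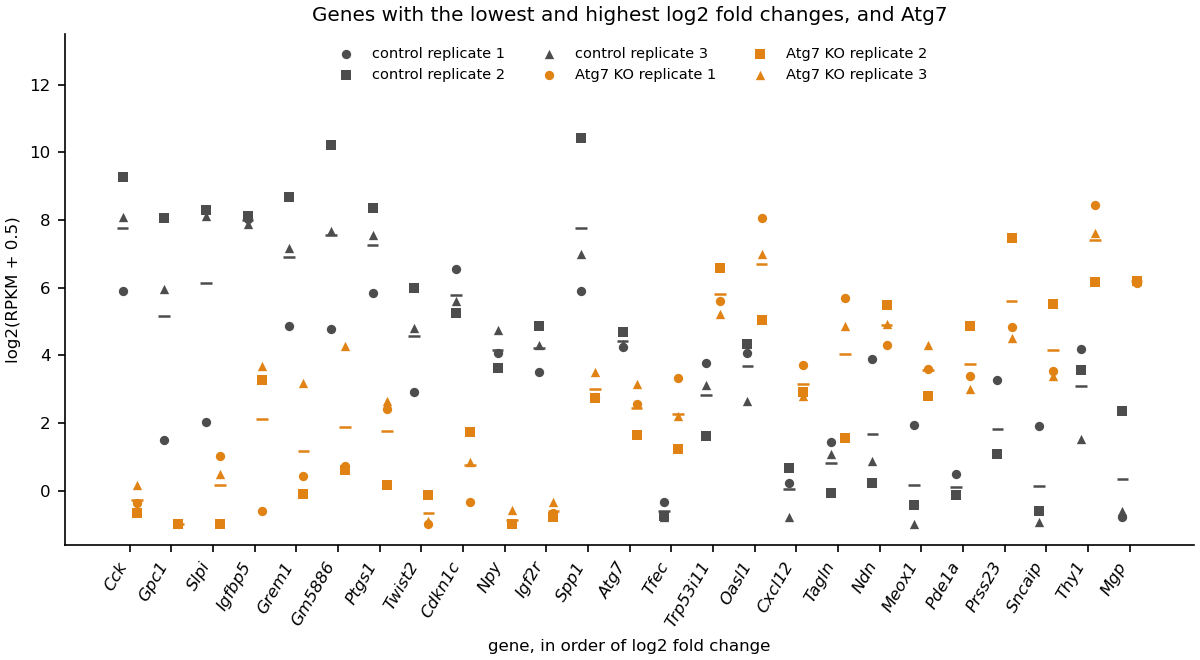
Level on the scale of log2(RPKM + 0.5) (vertical axis) in each control and Atg7 KO library for the 12 lowest and 12 highest genes and Atg7 (horizontal axis), with group means as bars. The controls of Spp1, Gpc1 and Gm5886 are spread widely, whereas those of Igfbp5, Npy and Atg7 lie close together.

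The smallest adjusted p-values belonged to genes with tight replicates. Id2, an inhibitor of basic helix-loop-helix factors, had an RPKM of 30.5, 30.2 and 31.2 across the controls and 6.1002, 4.87 and 6.01 across the Atg7 KO libraries (log2 fold change −2.34, standard error 0.154, adjusted p = 0.00226). Stxbp2, a regulator of vesicle fusion, had 45.3, 50.8 and 56.2 across the controls and 8.35, 8.78 and 6.71 across the Atg7 KO libraries (log2 fold change −2.604, standard error 0.168, adjusted p = 0.00226). In both, each group stayed within a narrow range and the ranges lay far apart, which is part of a choice by smallest adjusted p. Npy (−5.001, adjusted p = 0.00226), the betaine and GABA transporter Slc6a12 (−4.63, adjusted p = 0.00226) and the membrane peptidase Mme (−4.51, adjusted p = 0.00226) complete the 5 with the smallest p among falling genes. Among rising genes, Adm, the gene of the vasoactive peptide adrenomedullin, had 71.2, 56.1 and 73.6 across the controls and 334, 262 and 292 across the Atg7 KO libraries (log2 fold change 2.14, standard error 0.1698, adjusted p = 0.00416). Uchl1, a ubiquitin hydrolase of neurons, had 9.75, 7.97 and 10.3 across the controls and 47.6, 71.6 and 43.3 across the Atg7 KO libraries (log2 fold change 2.45, standard error 0.223, adjusted p = 0.00618). Chrnb1, a subunit of the muscle acetylcholine receptor (1.82, adjusted p = 0.00618), D17H6S56E-5 (1.78, adjusted p = 0.007195) and the actin-binding calponin Cnn2 (1.699, adjusted p = 0.00723) followed.

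Calls were followed through 17 alternative fits. Under the 16 alternatives other than the prefix term, 353 of the 803 falling and 122 of the 388 rising genes were called throughout. Separately, 25 of the 803 falling and 5 of the 388 rising genes were called with the prefix as a term, whether or not they kept the call elsewhere. The 25 hold Npy, Mme, Slc6a12, Igf2r, Twist2, Gpc1, Slpi, Vip and Thbd, which are described in this text for other reasons. The 5 rising genes are Uchl1, Ndn, Kif26a, S100a16 and 2210016F16Rik, the last 3 named after their values were seen (2.18, 1.53 and 1.36 on the log2 scale). Uchl1 and 2210016F16Rik rose under all 17 alternatives, as did 19 genes that fell. On the other side, 29 falling and 8 rising genes took the opposite sign with the prefix term. The 4 libraries with the Yang prefix lay beyond all 8 others in 30 of the 803 falling and 19 of the 388 rising genes, Mgp, Pde1a and Col1a2 among them. Over all 11784 tested genes this held for 67 lower and 64 higher. Since the calls compare Yang with control libraries, a higher share among called genes is part of the choice.

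Gene lists were then read one by one, each by the number of its tested genes that were called and by its median, beside 10.1% called, 50.6% of genes below 0, 49.4% above 0 and a median of −0.008 over all tested genes. Where counts are given without Atg7 KO replicate 2, the background is 8.1% lower and 5.02% higher, and without control replicate 2 it is 5.14% lower and 2.37% higher. Genes with every library of 1 group under the filter level of 0.5 RPKM passed through the other group alone and had to differ. They were 156 of the 1191 called genes and, in the lists, 18 called genes, namely Bmf, Col1a2, Fas, Gpc1, Gpc6, Igf2r, Itgb4, Itgb5, Itgb7, Lamb3, Lifr, Mx1, Npy, Pdgfc, Sema4g, Tgfb3, Twist2 and Vip, so the counts of their lists are shaped by the filter. Over all lists 162 genes were called, and 76 of them lost the call in at least 1 of the 6 fits that left out a library. With the prefix term 23 of the 162 took the other sign or stood at under 0.5 of their value, among them Hmox1, Flt1, Gdf15, Cdkn1a, Irf7 (0.504), Adamts1 (−0.801), Adamts4 (−0.76), Cdh2 (0.55), Col1a2 (0.53), Serpine2 (−1.61), Tgfb1 (−0.24), Osgin1 (−0.24), Sgk1 (−0.41), Ccl5 (1.19), Sema3e (0.68) and Gpc2 (−0.28). The medians of 13 of the 48 lists with a tested gene took the other sign with that term, among them those of the interferon-stimulated (−0.34), matricellular (−0.23), plasminogen (−0.25), lymphatic (0.66), VEGF (0.38) and Notch (0.596) lists.

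In the autophagy machinery the shares called were near that of all tested genes. Of 22 measured genes of the initiation complex, the lipid kinase complex and membrane supply, 1 fell and none rose, with a median of −0.15 log2 units. The one was Ulk1, the kinase that starts autophagy, with an RPKM of 12.9, 15.3 and 14.6 across the controls and 6.01, 6.82 and 6.87 across the Atg7 KO libraries (log2 fold change −1.06, standard error 0.158, adjusted p = 0.0127). Among 16 genes of ATG8 and ATG12 conjugation only Atg7 fell, and the median was −0.44. Atg5, the partner of ATG12, had 14.2, 11.1 and 10.6 across the controls and 18.2, 15.4 and 14.9 across the Atg7 KO libraries and Atg3, the E2-like enzyme of ATG8, had 20.8, 23.9 and 22.7 across the controls and 28.05, 29.9 and 23.4 across the Atg7 KO libraries, both short of the thresholds. Map1lc3b, which encodes LC3B, stood at 106, 110.2 and 137 across the controls and 62.4, 93.9 and 73.2 across the Atg7 KO libraries, without overlap but short of the fold change threshold (−0.63, adjusted p = 0.0724).

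Of 16 selective autophagy receptors 2 fell, with a list median of −0.13. Retreg1, a receptor for the endoplasmic reticulum, had an RPKM of 14.9, 14.96 and 22.8 across the controls and 2.92, 2.78 and 3.93 across the Atg7 KO libraries (log2 fold change −2.27, standard error 0.231, adjusted p = 0.007195). Optn, optineurin, had 45.6, 39.2 and 40.98 across the controls and 15.6, 19.4 and 15.9 across the Atg7 KO libraries (log2 fold change −1.29, standard error 0.154, adjusted p = 0.00879), but 7.69 in Atg5 KO replicate 3 and a value of 0.04 with the prefix term. Sqstm1, which encodes p62, the receptor whose protein is used as a sign of blocked autophagy, had 359, 579 and 374 across the controls and 403, 357 and 379 across the Atg7 KO libraries, so its RNA levels overlapped (−0.17, adjusted p = 0.60001). Of 21 targets of NRF2, the oxidative stress factor that p62 can release from KEAP1, 3 fell and none rose, with a median of 0.05. Hmox1, heme oxygenase 1, had 2011, 1871 and 1419 across the controls and 560.2, 664 and 809 across the Atg7 KO libraries (log2 fold change −1.38, standard error 0.214, adjusted p = 0.0145), and stood at −0.36 with the prefix term. The cystine transporter Slc7a11 (−1.35, adjusted p = 0.0403) and Osgin1 (−1.06, adjusted p = 0.0219) fell too, and both calls depended on single libraries. Slc7a11 lost its call without control replicate 2 or 3 or Atg7 KO replicate 3, at adjusted p of 0.116, 0.131 and 0.105, and Osgin1 stood at −0.91 and −0.98 without control replicate 2 and Atg7 KO replicate 3. Nqo1, a classical NRF2 target, had 377, 312 and 316 across the controls and 302, 255 and 302 across the Atg7 KO libraries and was not called. Without Atg7 KO replicate 2, 5 targets were called higher, and without control replicate 2 only 1 was called lower. None of the 31 measured proteasome subunits was called, with a median of 0.1003.

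Lysosomal genes stood lower. Of 34 measured genes for lysosomal enzymes, membrane proteins and regulators 7 fell and none rose, 31 had a value below 0, and the median was −0.51 log2 units. Ctsb, the protease cathepsin B, had an RPKM of 392, 524 and 396 across the controls and 138, 163 and 117 across the Atg7 KO libraries (log2 fold change −1.64, standard error 0.191, adjusted p = 0.00809). Lamp1, the abundant lysosomal membrane protein, had 935, 1003 and 1076 across the controls and 329, 484 and 428 across the Atg7 KO libraries (log2 fold change −1.29, standard error 0.186, adjusted p = 0.0121). In both genes the highest KO library lay below the lowest control. Tfeb, the transcription factor that drives many lysosomal genes, had 5.12, 4.77 and 6.105 across the controls and 0.946, 1.004 and 1.92 across the Atg7 KO libraries (log2 fold change −1.74, standard error 0.255, adjusted p = 0.0127). Ctsa, which protects lysosomal glycosidases (−1.13, adjusted p = 0.0112), Gla, alpha-galactosidase A (−1.61, adjusted p = 0.02196), Naglu, an enzyme of heparan sulfate breakdown (−1.07, adjusted p = 0.0236), and Npc2, which carries cholesterol out of lysosomes (−1.29, adjusted p = 0.0274), also fell. Naglu lost its call without control replicate 1 or Atg7 KO replicate 2, where it stood at −0.92 and −0.95, and Npc2 lost it without control replicate 3, at an adjusted p of 0.104. Cathepsin D, encoded by Ctsd, had 500.2, 544 and 474 across the controls and 253, 236 and 347 across the Atg7 KO libraries and missed the fold change threshold (−0.88, adjusted p = 0.02797).

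The TFEB family binds an E-box with the letters CACGTG, most often extended to TCACGTGA. Promoters were searched on both strands in the 250 bases before the RefSeq start on GRCm38.p6, with entries for 9359 of the 11784 tested genes, and every extended match is also an E-box match. CACGTG stood in 10.2% of all these genes, in 11 of the 26 lysosomal genes with an entry and in 4 of the 6 that fell (Ctsa, Gla, Lamp1 and Naglu). TCACGTGA stood in 1.91% of all genes and in 5 of the 26. The promoters of Gla (chrX:134601006-134601255, minus strand) and Ctsa (chr2:164833523-164833772, plus strand) are shown because they hold the extended letters, which are in capitals. A match in letters is no evidence of binding.
Gla: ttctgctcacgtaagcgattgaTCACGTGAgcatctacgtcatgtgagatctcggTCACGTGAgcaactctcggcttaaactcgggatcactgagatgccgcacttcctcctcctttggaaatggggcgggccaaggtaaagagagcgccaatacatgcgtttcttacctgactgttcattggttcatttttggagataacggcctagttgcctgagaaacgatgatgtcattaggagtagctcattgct
Ctsa: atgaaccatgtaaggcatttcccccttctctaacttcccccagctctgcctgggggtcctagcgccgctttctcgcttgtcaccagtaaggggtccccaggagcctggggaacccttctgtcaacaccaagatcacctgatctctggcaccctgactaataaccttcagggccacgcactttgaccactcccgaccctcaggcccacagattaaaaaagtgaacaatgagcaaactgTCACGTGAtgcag

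Genes of cholesterol synthesis stood lower throughout. The pathway turns acetyl-CoA through mevalonate, farnesyl pyrophosphate and squalene into cholesterol, and its genes are held in step by the sterol-sensing factor SREBP2. All 20 measured genes had a log2 fold change below 0, 13 fell, and the median was −1.38. Msmo1, a C4-demethylase late in the pathway, had an RPKM of 102, 141 and 101 across the controls and 22.4, 17.6 and 34.04 across the Atg7 KO libraries (log2 fold change −2.23, standard error 0.263, adjusted p = 0.0083997). Hmgcs1, which makes the precursor of mevalonate, had 64.2, 56.7 and 69.5 across the controls and 17.8, 17.5 and 27.02 across the Atg7 KO libraries (log2 fold change −1.61, standard error 0.203, adjusted p = 0.00967). Both were lower in each KO library than in any control. Fdft1, squalene synthase, stood at 22.98, 22.9 and 18.2 across the controls and 5.26, 5.41 and 6.81 across the Atg7 KO libraries (log2 fold change −1.79, standard error 0.1801, adjusted p = 0.007195). Pmvk, a mevalonate pathway kinase, fell as well (−1.58, adjusted p = 0.00976), as did Fdps (−2.13, adjusted p = 0.0116), Cyp51 (−1.93, adjusted p = 0.0119), Mvd (−1.77, adjusted p = 0.0113), Nsdhl (−1.599, adjusted p = 0.0127), Lss (−1.31, adjusted p = 0.0308), Dhcr7 and Tm7sf2. Dhcr7 lost its call in 4 of the 6 fits without a library, adjusted p up to 0.117, and Tm7sf2 without control replicate 2.

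Atg7 KO replicate 2 was often the lowest of the 3 in this pathway. Sqle, squalene epoxidase, had 54.9, 66.7 and 57.5 across the controls and 28.005, 10.9 and 31.5 across the Atg7 KO libraries (log2 fold change −1.46, standard error 0.378, adjusted p = 0.0467), and Idi1, an isomerase of the isoprene units, had 50.8, 47.3 and 43.3 across the controls and 19.5, 8.62 and 26.8 across the Atg7 KO libraries (log2 fold change −1.48, standard error 0.376, adjusted p = 0.0449). For Sqle the value was −0.99 without that library, under the fold change threshold, and without control replicate 2 or 3 its adjusted p was 0.128 or 0.134. Idi1 lost its call without control replicate 2 or 3 or Atg7 KO replicate 1, at adjusted p of 0.116, 0.124 and 0.104. Over the list, 11 genes were called without Atg7 KO replicate 2 and 9 without control replicate 2, and with the prefix term the median was −1.48 and none was called.

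Of the 12 tested genes of sterol uptake, regulation and efflux 2 fell, with a median of −0.57. Srebf2, which encodes SREBP2, had 81.2, 88.6 and 73.3 across the controls and 43.1, 28.7 and 48.9 across the Atg7 KO libraries (log2 fold change −1.03, standard error 0.217, adjusted p = 0.0279), but stood at −0.97 and −0.81 without control replicate 2 and Atg7 KO replicate 2. Mylip, a ubiquitin ligase whose gene is induced by sterols, fell (−2.12, adjusted p = 0.0166). Of 12 genes of fatty acid synthesis 4 fell and none rose, with a median of −0.63. Scd2, a stearoyl-CoA desaturase, had 188, 245 and 163 across the controls and 59.2, 57.1 and 90.1 across the Atg7 KO libraries (log2 fold change −1.53, standard error 0.236, adjusted p = 0.0144), and Fads2, which desaturates polyunsaturated fatty acids, had 17.8, 29.04 and 17.7 across the controls and 6.41, 3.45 and 8.25 across the Atg7 KO libraries (log2 fold change −1.79, standard error 0.336, adjusted p = 0.0217). Acss2, which makes acetyl-CoA from acetate (−2.1001, adjusted p = 0.0226), and Acsl3 (−1.41, adjusted p = 0.0492) fell too, the latter at an adjusted p of up to 0.126 without control replicate 2 or 3 or Atg7 KO replicate 1. Fasn, fatty acid synthase itself, had 21.1, 26.5 and 24.05 across the controls and 42.6, 30.99 and 30.96 across the Atg7 KO libraries and was not called (0.53, adjusted p = 0.0956).

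**Figure D4:**
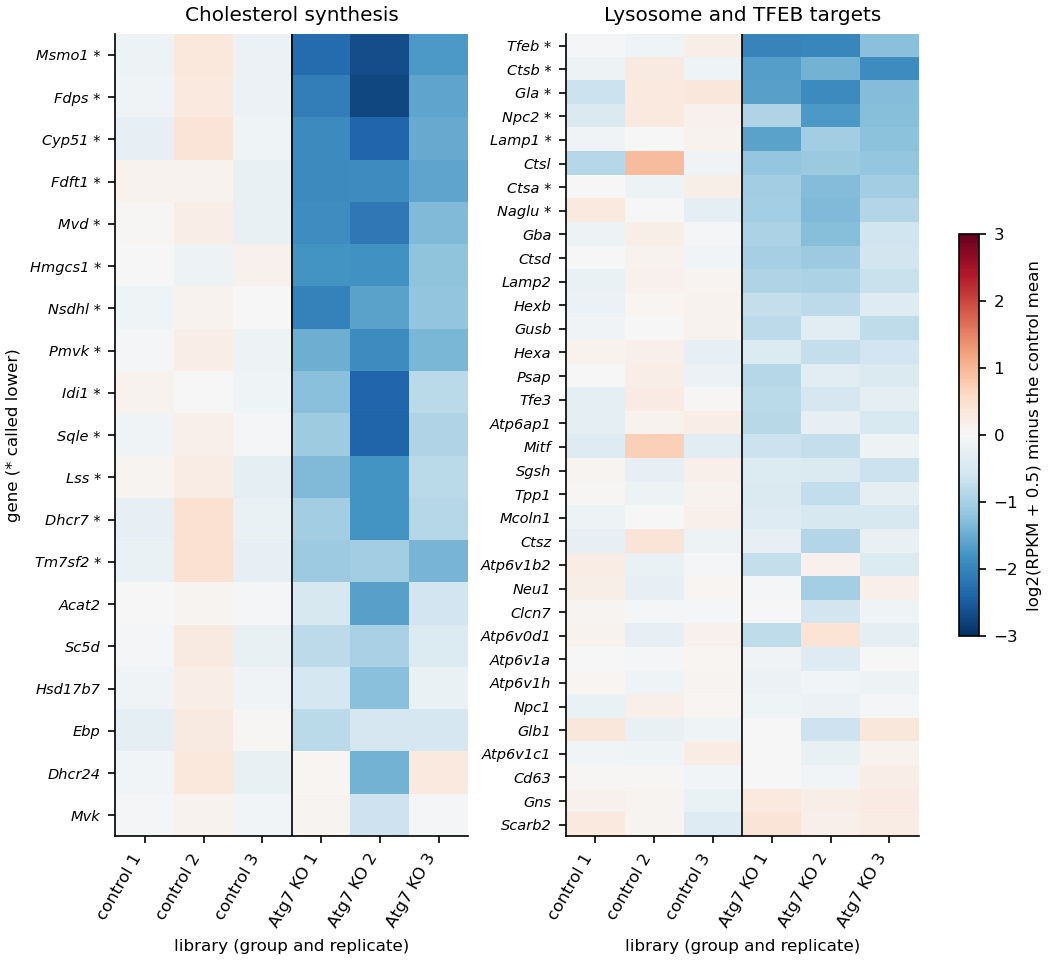
Log2(RPKM + 0.5) minus the control mean, as colour, in each of the 6 libraries (columns) for 19 of the 20 cholesterol synthesis genes and the 34 lysosomal genes (rows), with called genes starred. Most rows are lower in all 3 Atg7 KO libraries, and in the cholesterol genes replicate 2 is lowest in most rows.

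SREBP2 acts on sterol elements together with the factor NF-Y, which binds CCAAT boxes. In the same promoter windows the CCAAT box, counted on either strand, stood in 41.1% of the tested genes with an entry, in 14 of the 15 cholesterol genes with one, and in all 10 such genes that fell. The sterol element TCACNCCAC, searched on both strands and overlapping neither a CCAAT box nor an E-box in these sequences, stood in 1.11% of genes and in 1 of the 15, Hmgcs1. The promoters of Hmgcs1 (chr13:119690101-119690350, plus strand), Idi1 (chr13:8885356-8885605, plus strand) and Msmo1 (chr8:64733579-64733828, minus strand) are shown for the spacing of these boxes, which are in capitals. In Hmgcs1 the sterol element begins 137 bases before the start, and CCAAT boxes begin at 237, 176 and 45 bases.
Hmgcs1: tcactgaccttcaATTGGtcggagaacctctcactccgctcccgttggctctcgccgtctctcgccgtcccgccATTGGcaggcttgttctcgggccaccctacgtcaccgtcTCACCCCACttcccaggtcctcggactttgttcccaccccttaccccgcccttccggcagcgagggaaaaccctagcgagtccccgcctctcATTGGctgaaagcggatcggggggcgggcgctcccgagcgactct
Idi1: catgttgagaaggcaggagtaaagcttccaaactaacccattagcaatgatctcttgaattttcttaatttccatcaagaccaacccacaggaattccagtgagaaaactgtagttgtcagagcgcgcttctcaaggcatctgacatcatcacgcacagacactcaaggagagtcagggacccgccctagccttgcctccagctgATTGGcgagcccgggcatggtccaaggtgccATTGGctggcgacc
Msmo1: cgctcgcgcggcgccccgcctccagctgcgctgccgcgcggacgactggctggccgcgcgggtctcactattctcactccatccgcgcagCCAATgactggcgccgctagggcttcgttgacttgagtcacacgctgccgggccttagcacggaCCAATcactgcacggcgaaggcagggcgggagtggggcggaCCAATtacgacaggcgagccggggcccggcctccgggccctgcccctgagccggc

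Genes of the extracellular matrix changed in both directions. Of 10 tested syndecans, glypicans and other proteoglycans 6 fell and 1 rose, with a median of −1.37, where Gpc1 and Gpc6 passed the filter only through the controls. Vcan, the large proteoglycan versican, had an RPKM of 20.2, 68.3 and 66.6 across the controls and 0.993, 2.54 and 8.97 across the Atg7 KO libraries (log2 fold change −3.71, standard error 0.7302, adjusted p = 0.0241), and Sdc1, syndecan 1, had 4.64, 52.001 and 16.7 across the controls and 0.246, 1.44 and 0.401 across the Atg7 KO libraries (log2 fold change −3.93, standard error 0.802, adjusted p = 0.0258). In both the highest KO library lay below the lowest control, which was replicate 1. Gpc6 (−2.56, adjusted p = 0.0279), Gpc2 (−1.64, adjusted p = 0.0252) and Sdc2 fell beside Gpc1, but Sdc2 lost its call in 4 of the 6 fits without a library, adjusted p up to 0.138. Sdc3 rose (1.16, adjusted p = 0.0497), but not without control replicate 2 or 3 or Atg7 KO replicate 3, where its adjusted p lay between 0.116 and 0.134.

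Of 17 metalloproteinases, ADAMTS proteases and their TIMP inhibitors 7 fell and none rose, with a median of −1.24. Adamts1 had 139, 141 and 206 across the controls and 48.7, 42.2 and 55.3 across the Atg7 KO libraries (log2 fold change −1.71, standard error 0.201, adjusted p = 0.0083997) and Adamts4 had 63.9, 83.9 and 112 across the controls and 10.6, 17.9 and 19.8 across the Atg7 KO libraries (log2 fold change −2.40005, standard error 0.292, adjusted p = 0.00888). These versican-cleaving proteases were each lower in every KO library. Mmp13, a collagenase, had 2.19, 2.97 and 5.903 across the controls and 0.325, 0.451 and 0.5496 across the Atg7 KO libraries (log2 fold change −2.06, standard error 0.338, adjusted p = 0.0169), and Adamts5, Mmp11, Mmp19 and Timp3 fell too. Adamts5, whose groups overlapped, lost its call without control replicate 1 or 3 or Atg7 KO replicate 1 or 3, at adjusted p up to 0.181, Mmp11 without Atg7 KO replicate 1 (adjusted p = 0.102) and Timp3 without Atg7 KO replicate 2 (log2 fold change −0.98). Of 17 tested collagen chains, out of 34 in the table, 4 fell and 1, which passed the filter only through the KO libraries, rose, with a median of −0.83. The basement membrane chains Col4a6 (−2.798, adjusted p = 0.00967) and Col4a5 (lost in 3 of the 6 fits without a library, adjusted p up to 0.127), the fibrillar chain Col5a3 (−2.803, adjusted p = 0.0229) and the transmembrane chain Col23a1 (−3.53, adjusted p = 0.0208) were the falling genes, and 6 collagen genes fell without Atg7 KO replicate 2. Col1a2, a chain of type I collagen, rose to 1.11, 0.756 and 1.54 RPKM, from at most 0.0202 in control (log2 fold change 1.64, standard error 0.247, adjusted p = 0.0134).

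Among 11 laminins and other basement membrane genes 2 fell and 1 rose. Lama5, with 51.97, 41.8 and 36.6 across the controls and 11.8, 12.9 and 5.04 across the Atg7 KO libraries, fell (log2 fold change −2.16, standard error 0.347, adjusted p = 0.0161), whereas Lama4, the other laminin alpha chain of vessels, rose with 29.8, 12.9 and 13.98 across the controls and 77.4, 100.3 and 65.02 across the Atg7 KO libraries (log2 fold change 2.15, standard error 0.333, adjusted p = 0.0145). The pair thus moved in opposite directions without overlap. Lamb3 was the other falling gene, at an adjusted p of 0.105 without control replicate 3. Of 17 integrin subunits 5 fell (Itga7, Itga8, Itgb4, Itgb5 and Itgb7) and 1 rose, with a median of −0.37. Itga4, which pairs with beta 1 or beta 7 to bind fibronectin and VCAM1, had 2.601, 1.13 and 1.16 across the controls and 8.89, 11.9 and 9.35 across the Atg7 KO libraries (log2 fold change 2.36, standard error 0.292, adjusted p = 0.00912), while Itgb4, the laminin receptor of hemidesmosomes, fell (−1.58, adjusted p = 0.0206). Itga7, Itga8, Itgb5 and Itgb7 all lost the call without control replicate 2 or 3, at adjusted p up to 0.195, 0.171, 0.171 and 0.209. Itga7 and Itgb7 also lost it without any 1 of the KO libraries, Itga8 without Atg7 KO replicate 2, and Itgb5 without Atg7 KO replicate 1 or 3. The count of falling integrins was 2 without control replicate 2 and 3 without Atg7 KO replicate 2. Of the osteopontin receptor subunits, Itgb5 was among the called genes (−2.75, adjusted p = 0.0627), and Itgav, Itgb3 and Itgb1 were not called, with Itgb1 at 269.7, 249 and 293 across the controls and 256, 271 and 284 across the Atg7 KO libraries.

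Of 12 matricellular genes, whose products sit in the matrix and signal to cells, 3 rose and 1, Spp1, fell. Tnc, tenascin C, had 58.04, 40.3 and 18.6 across the controls and 255, 343 and 150.2 across the Atg7 KO libraries (log2 fold change 2.73, standard error 0.455, adjusted p = 0.0173), and Ctgf, connective tissue growth factor, had 62.8, 39.2 and 45.7 across the controls and 295, 365 and 113 across the Atg7 KO libraries (log2 fold change 2.24, standard error 0.4298, adjusted p = 0.0229). Both stood above the controls in all 3 KO libraries. Thbs1, thrombospondin 1, had 46.002, 246 and 60.3 across the controls and 211, 653 and 121 across the Atg7 KO libraries and overlapped. Of 11 genes of plasminogen activation and serine protease inhibition 4 fell, with a median of 0.01. Plat, tissue plasminogen activator, had 835, 572 and 997 across the controls and 37.6, 139 and 111 across the Atg7 KO libraries (log2 fold change −3.22, standard error 0.481, adjusted p = 0.01299), and Thbd, thrombomodulin, which turns thrombin towards protein C, had 163, 274 and 201 across the controls and 61.4, 57.2 and 53.4 across the Atg7 KO libraries (log2 fold change −1.85, standard error 0.206, adjusted p = 0.00806). Serpine2, an inhibitor of thrombin and plasminogen activators, fell (−3.76, adjusted p = 0.0274), with an adjusted p of 0.102 without control replicate 3. Plau, urokinase, had 454, 320.4 and 336 across the controls and 276, 503 and 457 across the Atg7 KO libraries and was not called.

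Of 25 tested endothelial identity genes 1 fell and 1 rose, a share near that of all tested genes, with a median of 0.02. Flt1, VEGF receptor 1, had an RPKM of 23.3, 16.1 and 34.1 across the controls and 4.66, 3.56 and 0.804 across the Atg7 KO libraries (log2 fold change −2.99, standard error 0.5296, adjusted p = 0.0196), and stood at −0.58 with the prefix term. Robo4, an endothelial guidance receptor, rose (1.65, adjusted p = 0.0327), with adjusted p of 0.102 and 0.109 without control replicate 3 and Atg7 KO replicate 1. Kdr, VEGF receptor 2, had 65.3, 15.2 and 34.7 across the controls and 52.1, 86.8 and 29.9 across the Atg7 KO libraries, and Cdh5, VE-cadherin, had 309.7, 116 and 271 across the controls and 370.2, 805 and 361 across the Atg7 KO libraries. Neither was called, and Atg7 KO replicate 2 was the highest library for both. In bulk RNA fewer cells of a type and less RNA per cell cannot be told apart.

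Of 13 lymphatic genes 2 fell and 1 rose. Foxc2, a factor of lymphatic valves, had 15.3, 14.96 and 15.9 across the controls and 3.46, 3.401 and 4.91 across the Atg7 KO libraries (log2 fold change −1.86, standard error 0.187, adjusted p = 0.007195), but 0.136 in Atg5 KO replicate 3 and a value of 1.54 with the prefix term. Vegfc, the main lymphatic growth factor, had 2.05, 11.04 and 7.83 across the controls and 0.739, 0.583 and 0.912 across the Atg7 KO libraries (log2 fold change −2.34, standard error 0.528, adjusted p = 0.0324), and its adjusted p was 0.1195 without control replicate 3 and 0.101 without Atg7 KO replicate 1. Lyve1, a hyaluronan receptor of lymphatic endothelium, had 179, 98.9 and 60.6 across the controls and 186, 290.0 and 203 across the Atg7 KO libraries and was close to the threshold (1.11, adjusted p = 0.0947), and its call was lost in 5 of the 6 fits without a library, those without control replicate 2 or 3 or any 1 of the KO libraries, at adjusted p from 0.159 to 0.229.

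Some markers of other cells differed as well. Of 7 fibroblast markers with values, 3 passed the filter on low levels, Col1a2 only through its KO libraries, so the count of risen markers is shaped by the filter. Thy1 and Col1a2 rose, while Col3a1 had 2.82, 143 and 23.1 in control against 1.49, 0.158 and 4.59 in KO cells and was not called (−3.58, adjusted p = 0.112). Col1a1 stayed between 0.0341 and 0.413 RPKM. Of the 2 smooth muscle and pericyte markers tested Tagln was called and Acta2, with 0.8201, 0.444 and 2.91 across the controls and 13.2, 1.15 and 8.27 across the Atg7 KO libraries, was not. Cd68, a lysosomal protein of macrophages that other cells also make, was the only leukocyte marker tested and fell, with 91.7, 49.8 and 34.4 across the controls and 22.7, 6.95 and 27.1 across the Atg7 KO libraries (−1.696, adjusted p = 0.0798). It lost the call without any 1 of the controls or without Atg7 KO replicate 1, at adjusted p up to 0.174. None of the epithelial markers was in the table. The part of other cells in the differences above was not tested.

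Of 13 regulators of mesenchymal transition 3 fell (Twist2, Tgfb1 and Tgfb3) and 3 rose (Cdh2, Tgfb2 and Tgm2), with a median of −0.15. Cdh2, N-cadherin, had 17.7, 24.4 and 21.4 across the controls and 37.7, 44.99 and 57.8 across the Atg7 KO libraries (log2 fold change 1.12, standard error 0.206, adjusted p = 0.0212) and stood at 0.96 without Atg7 KO replicate 3, and its call was also lost without control replicate 1. Tgfb1 lost its call without control replicate 3 or Atg7 KO replicate 1 or 2, Tgfb2 without control replicate 2 or 3 or Atg7 KO replicate 1, and Tgm2 without control replicate 3 or Atg7 KO replicate 1, at adjusted p up to 0.115, 0.152 and 0.117. In the VEGF and angiopoietin family 3 of 14 genes fell, Flt1, Vegfc (adjusted p up to 0.1195 without control replicate 3 or Atg7 KO replicate 1) and Vegfa. Vegfa, the principal VEGF, had 21.6, 37.4 and 20.9 across the controls and 10.5, 7.35 and 16.7 across the Atg7 KO libraries (−1.195, adjusted p = 0.0591), and lost the call without control replicate 2 or 3 or Atg7 KO replicate 1 or 2, at log2 fold changes from −1.49 to −0.93 over the 6 fits. Of 6 PDGF and FGF ligands and receptors Pdgfc (−2.12, adjusted p = 0.0677) and Pdgfa (−1.54, adjusted p = 0.0983) fell. Both calls were lost without control replicate 2 or 3 or Atg7 KO replicate 1 or 3, and that of Pdgfa also without Atg7 KO replicate 2, at adjusted p up to 0.193 and 0.266.

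In the BMP and TGF-beta pathway 3 of 21 genes fell and 2 rose, with a median of 0.07. Beside Grem1 and Id2, the BMP target Id1 fell, with an RPKM of 326, 160.0 and 345 across the controls and 44.7, 76.6 and 70.4 across the Atg7 KO libraries (log2 fold change −2.06, standard error 0.341, adjusted p = 0.0169). The BMP9 receptor gene Acvrl1, with 27.2, 13.8 and 18.3 across the controls and 52.4, 28.1 and 50.7 across the Atg7 KO libraries, rose (1.13, adjusted p = 0.0595), but not without control replicate 2 or 3 or Atg7 KO replicate 1 or 3, at adjusted p of 0.148 to 0.1699. Bmp6 was the other rising gene and lost its call in 4 of the 6 fits without a library, adjusted p up to 0.249. None of 17 genes of the Notch pathway was called. Of 17 semaphorins, plexins and neuropilins Sema3e, a ligand of PlexinD1, rose (1.99, adjusted p = 0.0311; adjusted p = 0.1103 without control replicate 3), as did Sema6b, while Sema4g fell. Sema6b lost its call in 3 of the 6 fits without a library, adjusted p up to 0.104, and Sema4g in 4 of the 6 fits without a library, adjusted p up to 0.204.

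Lists of inflammatory genes had medians below 0, and that of interferon-stimulated genes a median above 0, which turned to −0.34 with the prefix term. Of 22 targets and regulators of NF-kB and adhesion molecules 7 fell and none rose, with a median of −0.62, and without control replicate 2 there were 3 and a median of −0.27. Map3k8, the kinase TPL2, had an RPKM of 6.39, 6.06 and 6.5001 across the controls and 1.66, 1.99 and 1.798 across the Atg7 KO libraries (log2 fold change −1.56, standard error 0.1705, adjusted p = 0.00771). Traf1 had 15.7, 8.69 and 13.1 across the controls and 2.99, 1.82 and 2.81 across the Atg7 KO libraries (log2 fold change −2.08, standard error 0.274, adjusted p = 0.0103). Both were tight within groups and far apart between them, which naming by adjusted p favours. Tnfaip2 fell (−1.35, adjusted p = 0.0109), but its value with the prefix term was 0.12. Ptgs2, Rel, Sele and Selp were the remaining falling genes, and all 4 lost the call without control replicate 2 or 3, at adjusted p up to 0.207, 0.1897, 0.166 and 0.135. Ptgs2 and Rel also lost it without any 1 of the KO libraries, and Sele without Atg7 KO replicate 1. Nfkbia, the feedback inhibitor of NF-kB, had 61.2, 59.2 and 84.4 across the controls and 64.7, 91.3 and 68.8 across the Atg7 KO libraries and was not called.

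Of 19 chemokines and cytokines 2 fell and 2 rose, with a median of −0.81. Il15, a cytokine of natural killer cells, had 19.1, 24.3 and 26.1 across the controls and 2.98, 10.8 and 4.27 across the Atg7 KO libraries (log2 fold change −2.04, standard error 0.414, adjusted p = 0.0255). Cx3cl1, fractalkine, was called lower (−1.89, adjusted p = 0.0679), but its value was 0.03 with the prefix term, and it lost the call without any 1 of the controls or Atg7 KO replicate 2 or 3, at adjusted p up to 0.161. Ccl5 rose beside Cxcl12, but lost its call in 4 of the 6 fits without a library, adjusted p up to 0.206. Ccl2, with 575, 1128 and 795 across the controls and 629.7, 389 and 339.9 across the Atg7 KO libraries, was not called. Il6 had 1.45, 35.96 and 10.4 across the controls and 1.48, 0.653 and 0.935 across the Atg7 KO libraries (−2.63, adjusted p = 0.102) and Cxcl1 had 20.8, 604 and 219 across the controls and 29.3, 21.5 and 27.3 across the Atg7 KO libraries (−2.43, adjusted p = 0.1605). For both genes control replicate 2 was the highest library and control replicate 1 lay within or next to the range of the KO libraries. In the pathway of JAK and STAT3, 3 of 23 genes fell. Lifr, the receptor for leukemia inhibitory factor (−1.63, adjusted p = 0.0186), Jak3 (−1.92, adjusted p = 0.0303; adjusted p = 0.112 without control replicate 3) and Bcl3 (−3.07, adjusted p = 0.0625) did so, Bcl3 only with control replicates 2 and 3 and Atg7 KO replicate 1 all present.

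Among 32 interferon-stimulated genes 4 rose (Irf7, Cmpk2, Oasl2 and Parp14) and 1 fell, with a median of 0.54, or −0.34 with the prefix term. Irf7, the factor that amplifies type I interferon, had 53.96, 48.4 and 20.9 across the controls and 141, 72.6 and 112 across the Atg7 KO libraries (log2 fold change 1.45, standard error 0.397, adjusted p = 0.0541), and Cmpk2, a mitochondrial nucleotide kinase, had 9.97, 9.05 and 7.06 across the controls and 61.8, 16.8 and 24.4 across the Atg7 KO libraries (log2 fold change 1.72, standard error 0.443, adjusted p = 0.0463). Irf7 lost its call without control replicate 3 or Atg7 KO replicate 1 or 3, at adjusted p up to 0.158, and Cmpk2 without control replicate 2 or 3, at up to 0.147. Oasl2 lost it without control replicate 2 or 3 or Atg7 KO replicate 1 or 3, and Parp14 without control replicate 2 or 3 or Atg7 KO replicate 1 or 2, at up to 0.246 and 0.219. With the prefix term Oasl2 stood at −0.015. Without Atg7 KO replicate 2, 9 genes of the list were called higher. Mx1 fell, from under 1 RPKM in control (−1.12, adjusted p = 0.0213), and Isg15, with 131, 114 and 94.8 across the controls and 226, 130.3 and 174 across the Atg7 KO libraries, was not called. Of 17 genes of MHC class I presentation 1 fell, with a median of −0.61. It was Nlrc5, the transactivator of these genes (−1.47, adjusted p = 0.0517), which lost the call without control replicate 2 or 3 or Atg7 KO replicate 1, at adjusted p of up to 0.144. B2m, beta 2-microglobulin, had 1693, 2722 and 1868 across the controls and 1237, 1321 and 892 across the Atg7 KO libraries and missed the fold change threshold.

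Of 26 immediate early genes and AP-1 members 5 fell and 1 rose, with a median of −0.46. Dusp4, a phosphatase that dampens MAP kinases, had 99.03, 159 and 133 across the controls and 33.9, 39.8 and 45.4 across the Atg7 KO libraries (log2 fold change −1.69, standard error 0.211, adjusted p = 0.00929), and Jund had 110.1, 221 and 149 across the controls and 35.6, 49.4 and 56.9 across the Atg7 KO libraries (log2 fold change −1.72, standard error 0.288, adjusted p = 0.0177). Both were lower in every KO library. The orphan receptors Nr4a1 and Nr4a2 and the flow-responsive factor Klf2 fell too, and Dusp5 rose. Nr4a1 lost its call without control replicate 1 or 3 or Atg7 KO replicate 1, Klf2 without control replicate 3 or Atg7 KO replicate 1, and Dusp5 without control replicate 1 or 2 or Atg7 KO replicate 1 or 3, at adjusted p up to 0.164, 0.134 and 0.138. The value of Klf2 turned from −1.58 to 0.71 with the prefix term. Fos and Egr1 varied from library to library within each group and were not called.

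Of 27 tested genes around mTORC1 2 fell, a share near that of the whole table, with a median of −0.41. Ddit4, the stress-induced inhibitor REDD1, had an RPKM of 114, 300.1 and 147 across the controls and 40.6, 38.8 and 51.7 across the Atg7 KO libraries (log2 fold change −1.97, standard error 0.346, adjusted p = 0.0193). Sesn1, another stress-induced inhibitor, fell (−1.06, adjusted p = 0.0516), but not without control replicate 2 or 3 or Atg7 KO replicate 1, at adjusted p up to 0.153. Tsc1 RNA was present in both groups, with 5.55, 7.01 and 5.23 across the controls and 3.91, 3.39 and 4.76 across the Atg7 KO libraries (−0.51, adjusted p = 0.128), and RNA from a deleted allele can still be counted. In the core of PI3K and AKT signalling 2 of 23 genes fell, Pik3r2 and Sgk1, and Pik3cb rose (1.01, adjusted p = 0.0307). All 3 calls were lost without control replicate 3, at adjusted p up to 0.117, and that of Pik3cb also without Atg7 KO replicate 2, at a log2 fold change of 0.81 and an adjusted p of 0.0309.

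Of 26 genes of the ATF4 response to amino acid shortage 5 fell and none rose, with a median of −0.43. Gpt2, a mitochondrial alanine transaminase, had 35.7, 66.6 and 24.8 across the controls and 11.8, 7.85 and 9.99 across the Atg7 KO libraries (log2 fold change −1.94, standard error 0.353, adjusted p = 0.0206). Nupr1, a stress regulator, had 242, 524 and 222 across the controls and 100.1, 100.1 and 123 across the Atg7 KO libraries (log2 fold change −1.499, standard error 0.326, adjusted p = 0.0296), and Cebpb, Ddit4 and Slc7a11 fell too. The calls of Cebpb and Slc7a11 were lost without control replicate 2 or 3, and that of Slc7a11 also without Atg7 KO replicate 3, at adjusted p up to 0.151 and 0.131. For Gpt2, Nupr1, Ddit4 and Slc7a11 control replicate 2 was the highest library, and 3 genes of the list were called without it. Asns, asparagine synthetase, had 126, 123 and 73.7 across the controls and 118, 53.3 and 74.5 across the Atg7 KO libraries and was not called. Among 23 endoplasmic reticulum chaperones and genes of the unfolded protein response Herpud1 fell (−1.55, adjusted p = 0.0361; adjusted p = 0.104 without Atg7 KO replicate 1). None of 20 aminoacyl-tRNA synthetases was called.

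Lists of ribosomal protein genes had medians above 0. Of 81 for the cytosolic ribosome 4 rose and none fell, with a median of 0.44. Rpsa had 388, 379.9 and 312 across the controls and 864, 726 and 796 across the Atg7 KO libraries (log2 fold change 1.15, standard error 0.161, adjusted p = 0.0116), and Rplp1 had 865, 978 and 696 across the controls and 1885, 2033 and 1751 across the Atg7 KO libraries (log2 fold change 1.17, standard error 0.184, adjusted p = 0.0151). Rps2 (1.22, adjusted p = 0.0228) and Rps12 (1.13, adjusted p = 0.0159) were the others. Many of these genes have processed copies elsewhere in the genome, and how the authors' counting divided shared reads is not given, so single values are uncertain. Without Atg7 KO replicate 2, 9 rose and 1 fell. Of 77 mitochondrial ribosomal proteins 2 rose, Mrpl16 and Mrpl33 (1.11, adjusted p = 0.0308). Mrpl16 lost its call in 4 of the 6 fits without a library, adjusted p up to 0.119, and Mrpl33 in 3 of the 6 fits without a library, adjusted p up to 0.116, and without control replicate 2 none of the list was called. Of 75 nuclear-encoded subunits of the respiratory chain only Ndufa13 fell (−1.29, adjusted p = 0.00974), and the median was 0.07.

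Of 29 genes of glycolysis and the hypoxia response 5 fell and 1 rose, with a median of 0.13. Epas1, the hypoxia factor HIF-2 alpha of endothelium, had 26.3, 18.9 and 26.9 across the controls and 6.66, 11.5 and 4.25 across the Atg7 KO libraries (log2 fold change −1.71, standard error 0.3396, adjusted p = 0.0246), and Ndrg1 had 195, 223 and 193 across the controls and 64.8, 64.1 and 113 across the Atg7 KO libraries (log2 fold change −1.38, standard error 0.238, adjusted p = 0.0186). Adm, described above and itself a known target of hypoxia factors, rose. Hif1a had 207, 170.3 and 188 across the controls and 52.4, 155 and 101 across the Atg7 KO libraries and was not called (−1.0001, adjusted p = 0.104). Without control replicate 2, 2 of the list fell.

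Genes of mitosis and DNA replication had values above 0 in 34 of 36 cases, with a median of 0.55, and 3 rose. Tyms, thymidylate synthase, had 6.46, 5.95 and 9.57 across the controls and 14.7, 16.8 and 17.9 across the Atg7 KO libraries (log2 fold change 1.14, standard error 0.213, adjusted p = 0.0216). Rrm2, a subunit of ribonucleotide reductase (1.21, adjusted p = 0.0475), and Cdc6, which loads the replicative helicase (1.11, adjusted p = 0.0424), lost the call without control replicate 1 or 3 or Atg7 KO replicate 1, at adjusted p up to 0.146 and 0.131. Without control replicate 2, 6 of the list rose. Mki67 had 16.4, 28.8 and 27.6 across the controls and 42.3, 34.9 and 42.6 across the Atg7 KO libraries and missed the fold change threshold. Of 25 p53 targets and inhibitors of cyclin-dependent kinases 6 fell and none rose, with a median of −0.37. Cdkn1a, which encodes p21, had 69.2, 53.9 and 92.4 across the controls and 11.97, 17.5 and 32.4 across the Atg7 KO libraries (log2 fold change −1.86, standard error 0.368, adjusted p = 0.0243), and its value with the prefix term was −0.13. Gdf15, a stress cytokine (−2.34, adjusted p = 0.0144, and −0.62 with the prefix term), the death receptor Fas (−1.59, adjusted p = 0.0172) and Trp53inp1 fell beside Cdkn1c and Sesn1.

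Of 21 genes of the BCL2 family and caspases 3 fell. Bcl2l11, the cell death activator BIM, had 18.2, 21.4 and 35.6 across the controls and 7.81, 9.39 and 7.79 across the Atg7 KO libraries (log2 fold change −1.48, standard error 0.2602, adjusted p = 0.0193), its relative Bmf fell (adjusted p = 0.111 without control replicate 3), and so did the caspase gene Casp6 (−1.25, adjusted p = 0.02099). Of 34 splicing factors and hnRNPs 3 rose, with a median of 0.46. Hnrnpu, Srsf2 and Hnrnpm (1.097, adjusted p = 0.0351) did. All 3 lost the call without control replicate 2 and without Atg7 KO replicate 1, with Hnrnpm at 0.87 and at an adjusted p of 0.115, and without control replicate 2 the count was 1.

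**Figure D5:**
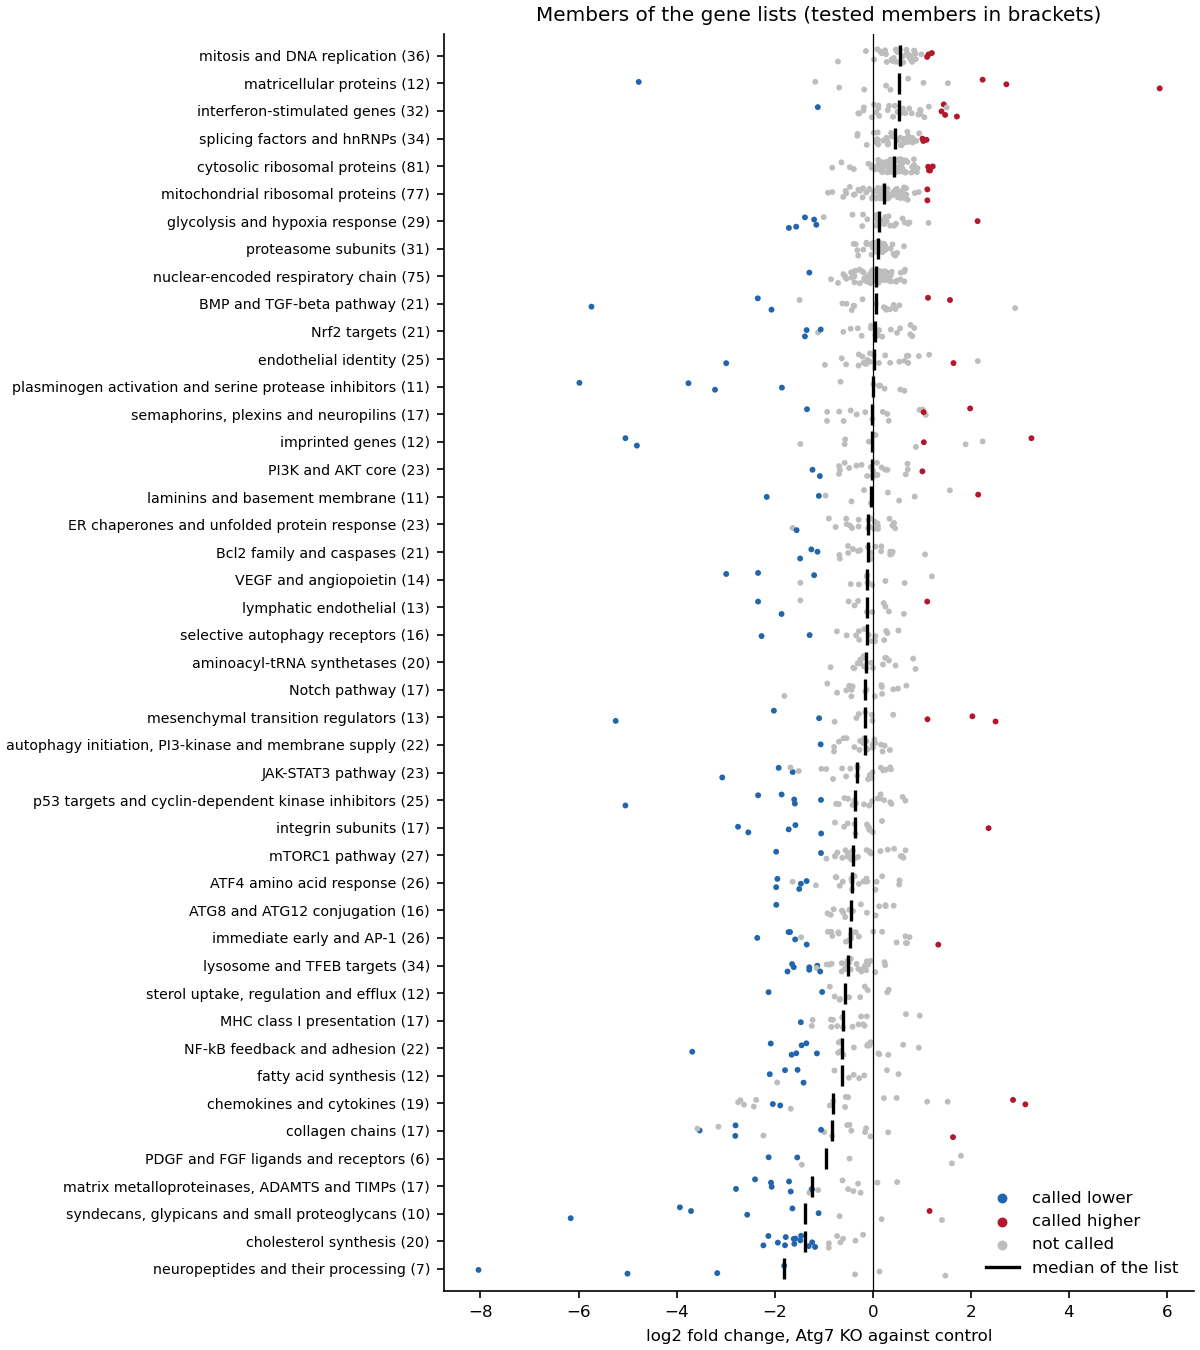
Log2 fold change of Atg7 KO over control (horizontal axis) for the tested members of the gene lists (rows), with called genes in colour and a bar at each list's median. Cholesterol synthesis has its median at −1.38 and all 20 members below 0, and mitosis and DNA replication has its median at 0.55.

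Among 7 tested of 15 genes in the table for neuropeptides and their processing 4 fell, Cck, Npy, Vip and Cpe. Npy and Vip passed the filter only through the controls, so this count is shaped by it. Npy, neuropeptide Y, had 16.3, 11.8 and 26.4 across the controls and 0, 0 and 0.174 across the Atg7 KO libraries, or 2 reads in the 3 KO libraries against 625 in the controls, a ratio of 280.2 with a 95% counting interval from 77.2 to 2319. Vip, vasoactive intestinal peptide, had 5.51, 5.87 and 7.59 across the controls and 0.108, 0.478 and 0.213 across the Atg7 KO libraries (log2 fold change −3.17, standard error 0.251, adjusted p = 0.00416). Cpe, a carboxypeptidase that trims peptide hormones, was an abundant transcript with 724, 629 and 787 across the controls and 102, 348 and 234 across the Atg7 KO libraries (log2 fold change −1.805, standard error 0.412, adjusted p = 0.0335), and its adjusted p was 0.118 without control replicate 3. Of 12 tested imprinted genes, which are expressed from 1 parental allele, out of 23 in the table, 2 fell (Cdkn1c and Igf2r, the latter tested only through its controls) and 2 rose (Ndn and Nnat). Both rising calls were lost without control replicate 2 or 3 or Atg7 KO replicate 1 or 3, at adjusted p up to 0.166 and 0.169. Mest, with 20.5, 1.95 and 0.116 across the controls and 74.6, 0.3404 and 52.7 across the Atg7 KO libraries, differed among replicates of 1 group by more than between groups and was not called.

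Direct comparison of Atg7 KO with the other KO cells asked where loss of ATG7 differed from loss of ATG5, which acts in the same conjugation step, and of FIP200, which acts in initiation. The fit held all 12 libraries and 12233 genes. Atg7 KO and Atg5 KO cells differed in no gene by these thresholds (0%). Before adjustment 562 genes had a p under 0.05, and the smallest adjusted p from limma was 0.253. Disp2, Pbp2 and Gpx7 were among the genes with the smallest p-values and are named after their values were seen. Gpx7, a peroxidase of the endoplasmic reticulum, had an RPKM of 0.334, 0.0452 and 0.605 in Atg7 KO libraries, 3.41, 5.12 and 4.88 in those of Atg5 KO cells and 0.391, 0.0349 and 0 in controls. All 3 Atg7 KO libraries lay below the 3 Atg5 KO libraries in this gene. Gpx7 was picked for its small p-value, so this separation is part of the choice, and it was not called. Without Atg5 KO replicate 3, Mgp was called higher in Atg7 KO cells, and with the prefix term Praf2 was, likewise named after its value was seen.

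Against Fip200 KO cells the count was also 0 (0%). All Fip200 KO libraries have the prefix FY and all Atg7 KO libraries the prefix Yang, so prefix and knockout cannot be told apart in this comparison. Before adjustment 916 genes had a p under 0.05, and the smallest adjusted p from limma was 0.203. That count rested on Fip200 KO replicate 3, without which 404 genes were called, 204 lower and 200 higher in Atg7 KO cells. Irf7 and Isg15 had the smallest p-values. Irf7 stood at 141, 72.6 and 112 in Atg7 KO and 5.66, 15.4 and 17.1 in Fip200 KO libraries, a log2 difference of 3.13, and Isg15 at 226, 130.3 and 174 and 16.8, 31.9 and 47.7, a difference of 2.53. Both were higher in each Atg7 KO library than in any Fip200 KO library, and the controls lay between for Irf7. The separation is part of a choice by p-value. Atg5 KO replicate 3, the other Yang library, stood at 86.3 for Irf7 against 41.5 and 33.7 in Atg5 KO replicates 1 and 2. For Isg15 it stood at 178 against 91.6 and 68.6. Fads2 stood at 6.41, 3.45 and 8.25 in Atg7 KO, 25.96, 27.2 and 15.9 in Fip200 KO and 12.1, 13.9 and 15.3 in Atg5 KO libraries, so that the Atg7 KO libraries were the lowest of the 3 groups. Fads2 was likewise taken from the smallest p-values and was not called. For cholesterol synthesis the median log2 difference from control was −1.38 in Atg7 KO, −0.71 in Atg5 KO and −0.44 in Fip200 KO cells, from the same 3 control libraries. The median direct difference over these genes was −0.47 against Atg5 KO and −0.87 against Fip200 KO cells, where no single gene was called.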

How the data were processed

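RNA-sequencing of 3 Atg7 KO and 3 control libraries of 562 cells was re-analysed. The submitters' processing notes name TopHat2 and edgeR; per the paper's methods, adapter-trimmed reads were aligned and counted on known transcripts. Their versions, the genome build, the annotation and the setting for strand or shared reads are not given in the sources used here. The authors deposited RPKM values per library (reads per kilobase of gene, scaled to the library total), which were used here. The deposited group means are signal values, reads divided by size factors, and served here only to fix the scale of the recovered reads. The deposited fold change is their ratio, with its log2 beside it, and the deposited p-value and adjusted p-value come from the authors' test; neither folds nor p-values of the authors were used.

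RPKM steps gave back whole reads for all 14851 genes (100.0%, tolerance 0.05 reads), 20 of them without reads. Library totals ranged from 17269403 to 23635368. Counting intervals are exact at 95% and cover counting error only. No pair of replicates was alike within sampling noise, with a chi-square per degree of freedom of 51.4 or more.

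The filter kept genes that reached 0.5 RPKM in 3 or more of the 6 libraries. The test was that of limma 3.58.1 (R 4.3.3) on log2(RPKM + 0.5), moderated with a trend in expression level, with Benjamini-Hochberg adjustment over all tested genes. The direct comparisons between KO cells used 1 fit of all 12 libraries. The test was checked on simulated libraries in which each gene varied independently, with a spread taken from these data. They held no prefix, chromosome-wide or library-wide effects, so the check does not cover these. The members, gene lists and tests were chosen with earlier results of these data known. Named genes are Atg7 and Spp1, the 12 lowest and 12 highest called genes (no overlap, mean RPKM of 1 or more), the 5 smallest adjusted p in each direction, 5 neighbours on each side of Atg7, and up to 6 members of each list, defining ones first and then called ones by adjusted p. Further called members were named where a list held few, and 4 chosen genes are not reported here. Chromosomes and promoters come from RefSeq on GRCm38.p6. Alternatives were other pseudocounts, filters and scalings, array weights, voom on the recovered reads, prefix and replicate terms, and each library left out. Tables and figures were made in Python 3.11.15 with pandas 2.3.3, numpy 2.4.6, matplotlib 3.10.9 and scipy 1.17.1.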

Additional observations from a re-analysis of the deposited data

How the results depend on the processing

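The count of 1191 called genes kept within 1.5 times of its value under 10 alternatives, from 976 with a pseudocount of 1 to 1575 with array weights, with 1423 by voom on the recovered reads. The exception was the prefix term, with 36. Leaving out 1 library gave 748 (without control replicate 3) to 1546 (without Atg7 KO replicate 2), and 792 without Atg7 KO replicate 1. Replicate numbers do not pair the samples, since the deviations of same-numbered libraries correlated at −0.11, −0.22 and 0.07 and not every library correlated best with its own number. With a replicate block 1071 genes were called. Between Atg7 KO and Atg5 KO cells the count of 0 became 1 with the prefix term and ranged from 0 to 1 without a library. Between Atg7 KO and Fip200 KO cells it became 2 with the prefix term (Foxf2 and Cxcl5 lower, named after their values were seen) and ranged from 0 to 404 without a library, the highest without Fip200 KO replicate 3. A sign changed with the prefix term for Cx3cl1 (0.031), Foxc2 (1.54), Mgp (−1.96), Optn (0.043), Sqstm1 (0.51) and Tnfaip2 (0.12), for the called list members Klf2 (0.71) and Oasl2 (−0.015), and for Sqstm1 without control replicate 2, with −0.29 to 0.049 over the fits without a library. The causes were not tested. There were 2290 pairs of a gene chosen for naming and an alternative, 135 of them with the prefix term. With that term 15 pairs kept direction and call, 114 lost the call and 6 changed sign. Among the other pairs 1990 kept both, 163 lost the call, 1 gained it and 1 changed sign. The scaling by median of ratios moved the median gene from −0.008 to −0.001. With 3 libraries a group, the spread of the controls limits what can be called for genes such as Gpc1 and Slpi.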
